A study of Mus musculus with 12 samples.

Results

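The transcripts described here are those of 8 genes that fat cells express strongly or secrete: Adipoq, Lep, Retn, Cfd, Rbp4, Nampt, Car3 and Fabp4. They were named as a set and found by gene symbol among the 55487 Ensembl gene IDs of the count files. All 8 had enough reads to be tested, among 18647 tested genes. RNA came from the mammary gland of female C57BL/6 mice, an inbred laboratory strain, taken on postnatal day 84, that is 4 weeks after folic acid supplementation. 6 libraries came from mice supplemented at 5 mg/kg and 6 from mice supplemented at 1 mg/kg, and no unsupplemented group was analysed here. The labels name no transgene, genotype or batch and do not say whether each library is its own animal, and each p therefore measures the spread between these samples. Replicate numbers are names in record order and pair nothing.

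A mammary gland lies within a pad of white fat, and white fat cells release hormones that act on liver, brain, muscle and immune cells. Adiponectin, the product of Adipoq, circulates as multimers and raises insulin sensitivity, and leptin, the product of Lep, reports fat stores to the hypothalamus. In mice, white fat is the main source of resistin, the product of Retn. Cfd encodes adipsin, the serine protease that starts the alternative complement pathway. Rbp4 encodes the plasma carrier of retinol. Nampt encodes the rate-limiting enzyme of NAD salvage, which is also found outside cells, where it has been called visfatin. Car3 encodes carbonic anhydrase 3, a cytosolic enzyme abundant in fat cells and in skeletal muscle, and Fabp4 encodes the cytosolic lipid chaperone aP2 of fat cells and macrophages.

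All 8 are protein-coding genes. In the GENCODE vM21 annotation of GRCm38, Adipoq spans chr16:23146536-23158028, Lep chr6:29060220-29073877, Retn chr8:3655770-3660110, Cfd chr10:79890853-79892655, Nampt chr12:32819545-32853349 and Car3 chr3:14863512-14872523, all on the forward strand. Rbp4 spans chr19:38116629-38125281 and Fabp4 chr3:10204088-10208576, both on the reverse strand. No other annotated gene overlaps them, except Gdap10, which lies in an intron of Nampt on the same strand.

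The stretch before the start of the genes is shown as a description, and its relation to the levels of the transcripts was not tested. Sequences are from RefSeq on GRCm38.p6, which held a promoter for 6 of the 8 genes. Each is the genome strand of the gene, up to 120 bases that end next to its start, with matches to 6 searched motifs in capitals. Of 2 starts listed for Rbp4, the upstream one is shown.
Adipoq: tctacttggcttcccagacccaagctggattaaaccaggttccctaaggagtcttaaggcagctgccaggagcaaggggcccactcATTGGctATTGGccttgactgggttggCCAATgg
Retn: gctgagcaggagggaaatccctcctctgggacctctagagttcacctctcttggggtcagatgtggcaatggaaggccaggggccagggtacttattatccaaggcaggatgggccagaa
Cfd: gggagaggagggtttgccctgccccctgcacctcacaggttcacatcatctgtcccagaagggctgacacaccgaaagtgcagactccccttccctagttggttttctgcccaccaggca
Rbp4: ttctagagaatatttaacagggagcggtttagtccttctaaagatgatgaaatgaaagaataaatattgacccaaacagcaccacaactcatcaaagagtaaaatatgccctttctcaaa
Lep: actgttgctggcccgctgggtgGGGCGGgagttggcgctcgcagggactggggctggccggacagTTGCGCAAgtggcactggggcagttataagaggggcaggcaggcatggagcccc
Nampt: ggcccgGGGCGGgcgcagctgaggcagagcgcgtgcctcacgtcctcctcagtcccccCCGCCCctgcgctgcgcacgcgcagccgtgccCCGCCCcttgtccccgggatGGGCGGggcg
These windows are chr16:23146416-23146535, chr8:3655650-3655769, chr10:79890733-79890852, chr6:29060101-29060219 and chr12:32820215-32820334 on the forward strand and chr19:38125322-38125441 on the reverse strand. None overlaps an annotated exon, and that of Nampt lies within the annotated span of the gene. The motifs were the TATA box, spelled TATAAA, the CCAAT box, the GC box, spelled GGGCGG, the E box, spelled CACGTG, a palindrome that C/EBP factors bind, spelled TTGCGCAA, and a repeat that PPARG binds with its partner, spelled AGGTCANAGGTCA. They were searched on both strands over the 250 bases before the start.

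Within that search the Adipoq promoter held 3 CCAAT matches, all in the 34 bases next to the start and among the letters shown, and 33.8% of the 32851 RefSeq promoters held at least 1. The Lep promoter held TTGCGCAA from 55 to 48 bases before the start, a motif in 0.164% of promoters, and 1 GC box. Nampt held GC box matches and no other motif of the 6, and 32.7% of promoters held a GC box. The upstream Rbp4 start had 1 CCAAT, outside the letters shown, and the downstream one, which is not shown, had TATAAA from 28 to 23 bases before it and 2 GC boxes. In the Retn and Cfd windows none of the 6 motifs was matched, which says only that these letters are not in those windows. TATAAA was held by 12.4% of promoters, CACGTG by 6.02% and AGGTCANAGGTCA by 0.0335%. A match is a description of the letters and does not show that a factor binds.

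Gene-assigned reads ranged over the libraries between 48.2 M and 75.3 M, with M for mega. The 8 transcripts together took 0.645% to 1.21% of them at 5 mg/kg and 0.479% to 1.27% at 1 mg/kg. The summed level of 6 B cell markers, Ms4a1 and Cr2 among them, in CPM (counts scaled to a common total of reads), ranged between 3.39 and 480 CPM in the 5 mg/kg pads, against 2.67 and 648 CPM in the 1 mg/kg pads, and none was at 0 reads in any library. By the mean log2 (CPM + 1) of these markers, 5 libraries lay between 0.52 and 1.07 (replicates 4, 5 and 6 of the 5 mg/kg group with replicates 2 and 4 of the 1 mg/kg group) and the other 7 between 3.86 and 6.71. The 12 brown fat markers summed to 57.5 to 1698 CPM in the 5 mg/kg pads, against 73.8 to 954 CPM in the 1 mg/kg pads, and none was at 0 reads in any library. The 6 slow muscle markers summed to 21.5 to 2214 CPM in the 5 mg/kg pads, against 3.06 to 216 CPM in the 1 mg/kg pads. The 6 fast muscle markers summed to 9092 to 24192 CPM in the 5 mg/kg pads, against 5320 to 41211 CPM in the 1 mg/kg pads. The part of other tissue in the results below was not tested, beyond the values given with them. In whole pads, fewer fat cells and less RNA per fat cell cannot be told apart.

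No transcript of the 8 differed between pads of the 5 mg/kg group and those of the 1 mg/kg group beyond the spread between libraries. Adiponectin, leptin, resistin, adipsin, Rbp4, Nampt and Fabp4 transcripts had higher fitted levels at 5 mg/kg, by 0.18 to 0.72 on the log2 scale, and Car3 was near 0. The ratio of the highest pad to the lowest was smaller among the 6 pads at 5 mg/kg than among the 6 at 1 mg/kg for all 8, by little for Nampt (2.29-fold at 5 mg/kg, 2.36-fold at 1 mg/kg), and most tested genes also varied less at 5 mg/kg.

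Among the hormones, Adipoq had a lowest value of 511 CPM, a median of 667 CPM and a highest of 948 CPM in the 5 mg/kg libraries, against 236, 472 and 1035 CPM in the 1 mg/kg libraries. The highest and the lowest of all 12 libraries were both at 1 mg/kg (replicates 4 and 6), so the groups overlapped, although each 5 mg/kg library lay above the 1 mg/kg median. The log2 fold change was 0.33 ± 0.33 (SE, 95% interval -0.38 to 1.04, n = 6 per group, edgeR quasi-likelihood test, Benjamini-Hochberg adjusted p = 0.943).

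Lep had the fewest reads of the 3 hormones and the widest spread. It had a lowest value of 30.1 CPM, a median of 43.0 CPM and a highest of 81.2 CPM at 5 mg/kg, against 6.45, 23.3 and 75.1 CPM at 1 mg/kg. Replicate 3 at 1 mg/kg was far under the rest, with 303 reads, and 4 of 6 libraries at 1 mg/kg lay under the lowest at 5 mg/kg. Replicate 4 at 1 mg/kg, at 75.1 CPM, was above 5 of the 6 libraries at 5 mg/kg. The log2 fold change of Lep was 0.72 ± 0.48 (SE, 95% interval -0.31 to 1.76, n = 6 per group, edgeR adjusted p = 0.943).

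Retn ranged from 126 through a median of 149 to 233 CPM at 5 mg/kg, against 45.8, 101 and 324 CPM at 1 mg/kg. As for Adipoq, replicates 4 and 6 at 1 mg/kg were the extremes of the whole set and enclosed all 6 libraries at 5 mg/kg. Its log2 fold change was 0.21 ± 0.39 (SE, 95% interval -0.63 to 1.05, n = 6 per group, edgeR adjusted p = 0.943).

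**Figure D1:**
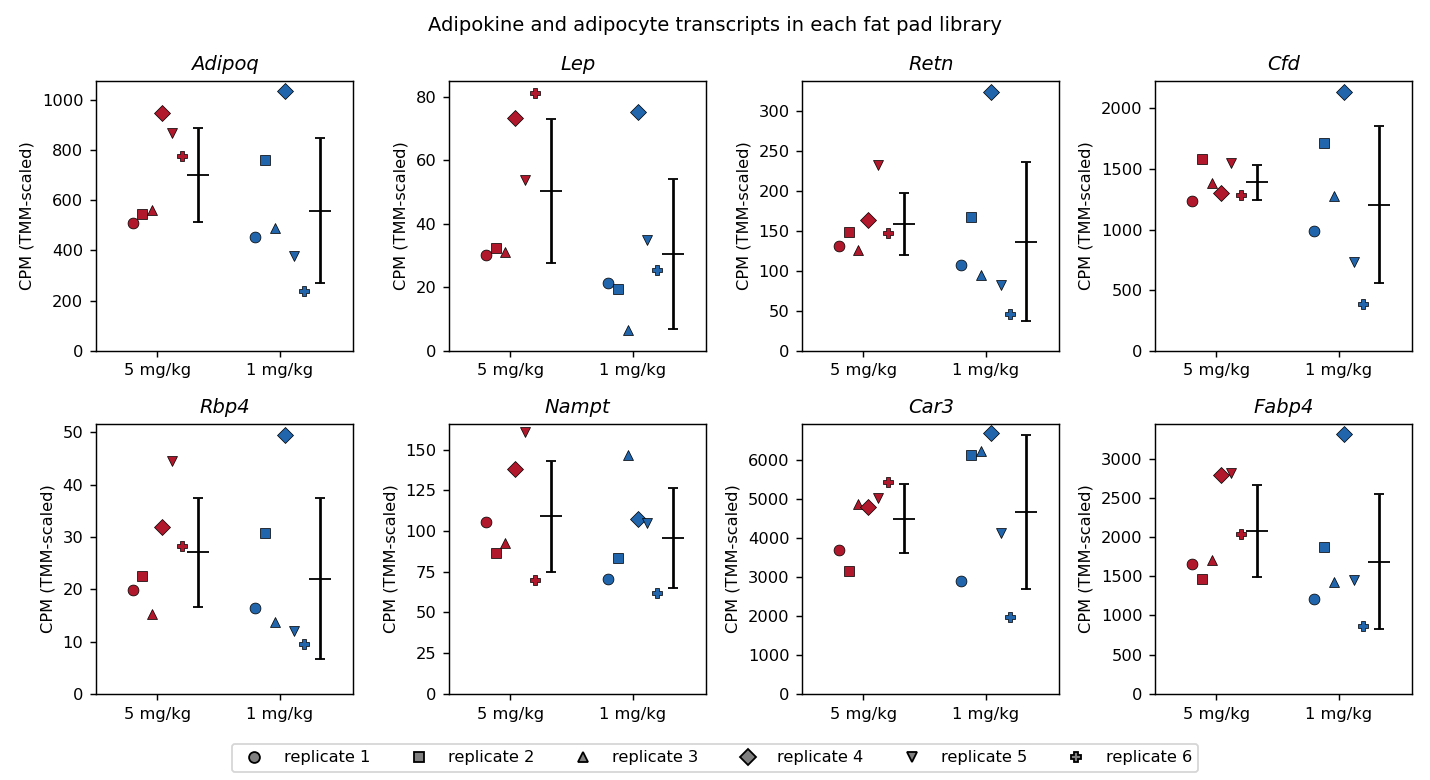
CPM (TMM-scaled, linear axes from 0) of the 8 transcripts in the 6 libraries at 5 mg/kg (red, left) and the 6 at 1 mg/kg (blue, right); symbols mark replicates and the black bar is the mean ± SD. Replicate 4 at 1 mg/kg (diamond) is the highest library for 6 transcripts and replicate 6 at 1 mg/kg (cross) the lowest for 7, and the groups overlap in each panel.

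Of the other secreted proteins, Cfd showed the sharpest contrast in the spread of CPM between the groups. It ran from 1235 through a median of 1342 to 1580 CPM at 5 mg/kg, against 384, 1133 and 2138 CPM at 1 mg/kg. The 5 mg/kg libraries thus covered a 1.28-fold range and the 1 mg/kg libraries a 5.57-fold range around them. The difference of the means was small against this, with a log2 fold change of 0.20 ± 0.34 (SE, 95% interval -0.54 to 0.95, n = 6 per group, edgeR adjusted p = 0.943).

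Rbp4 was low, at 15.3 to 44.6 CPM with a median of 25.4 CPM at 5 mg/kg, against 9.59 to 49.4 CPM with a median of 15.1 CPM at 1 mg/kg. Replicate 5 of the 5 mg/kg group and replicate 4 of the 1 mg/kg group stood above the other libraries of their groups, and the groups overlapped. Nampt ran from 70.1 through a median of 99.1 to 161 CPM at 5 mg/kg, against 62.1, 94.4 and 147 CPM at 1 mg/kg. Its high libraries were other ones, replicates 4 and 5 of the 5 mg/kg group with replicate 3 of the 1 mg/kg group. The log2 fold changes were 0.30 ± 0.40 for Rbp4 (95% interval -0.57 to 1.17) and 0.18 ± 0.25 for Nampt (95% interval -0.35 to 0.72), each with an edgeR adjusted p of 0.943 (SE, n = 6 per group).

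Car3 and Fabp4 had the highest mean CPM of the set, a measure that makes no allowance for transcript length. Car3, the enzyme of fat and muscle, ran from 3146 through a median of 4834 to 5440 CPM at 5 mg/kg, against 1979, 5121 and 6688 CPM at 1 mg/kg. In the 1 mg/kg group replicates 2, 3 and 4 exceeded all 6 libraries at 5 mg/kg, and its replicates 1 and 6 were below all 6. Fabp4 ran from 1463 through a median of 1867 to 2813 CPM at 5 mg/kg, against 868, 1433 and 3313 CPM at 1 mg/kg. Each 5 mg/kg library was above the 1 mg/kg median for Fabp4, and 1 of 6 was for Car3. The log2 fold changes were -0.055 ± 0.32 for Car3 (95% interval -0.75 to 0.64, edgeR adjusted p = 0.981) and 0.30 ± 0.32 for Fabp4 (95% interval -0.40 to 1.00, adjusted p = 0.943; SE, n = 6 per group).

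Of the 8 transcripts 0 passed an adjusted p of 0.05, as did 0 of 18647 genes (0.0%). At an unadjusted p under 0.05 the fit called 359 genes (1.93%), 249 of them higher at 5 mg/kg (1.34%), with none of the 8 among them. DESeq2 and limma-voom also gave 0 genes past an adjusted p of 0.05, with 776 and 361 genes at an unadjusted p under 0.05. 7 of the 8 fold changes were above 0, with a median of 0.26, against 47.2% and a median of -0.018 over all tested genes. The 2 groups did not overlap in 8 of 18647 genes (0.0429%), none of them among these.

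The size of the fold changes depended on single libraries at 1 mg/kg. Without replicate 4 at 1 mg/kg, the highest library for 6 of the 8, the log2 fold change was 0.60 for Adipoq, 1.23 for Lep, 0.68 for Retn, 0.72 for Rbp4 and 0.61 for Fabp4, each with an edgeR adjusted p of 0.643. Lep, Retn and Fabp4 were then under an unadjusted p of 0.05. The number of genes at an unadjusted p under 0.05 was then 1445 of 18926 tested, 1080 of them higher at 5 mg/kg, in place of 359 of 18647. Without replicate 6 at 1 mg/kg, the lowest library for 7 of the 8, the fold changes were smaller instead, at 0.17 for Adipoq, 0.033 for Retn, 0.019 for Cfd, 0.15 for Rbp4, 0.085 for Nampt and 0.16 for Fabp4, while Lep had 0.68 and Car3 -0.21 (edgeR adjusted p of 1.00 for each). Without replicate 5 at 5 mg/kg, Rbp4 had 0.11 and Nampt 0.047.

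Set against other genes of the fat cell, the higher fitted levels at 5 mg/kg were not seen, except for Lep. When libraries were scaled to the summed reads of 21 further adipocyte genes, the log2 fold change was -0.0410 for Adipoq, -0.0605 for Retn, -0.0631 for Cfd, -0.0449 for Rbp4, -0.0969 for Fabp4 and -0.33 for Nampt. Car3, near 0 without this scaling, had the lowest value of the 8, -0.41. Lep kept a positive value, 0.26 ± 0.41 (SE), which was smaller than its SE. This scaling moved the median of all tested genes to -0.55, and scaling to library size alone moved it to -0.16. With the B cell list level as a covariate, the fold changes of the 8 stayed between -0.0787 (Car3) and 0.53 (Lep).

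**Figure D2:**
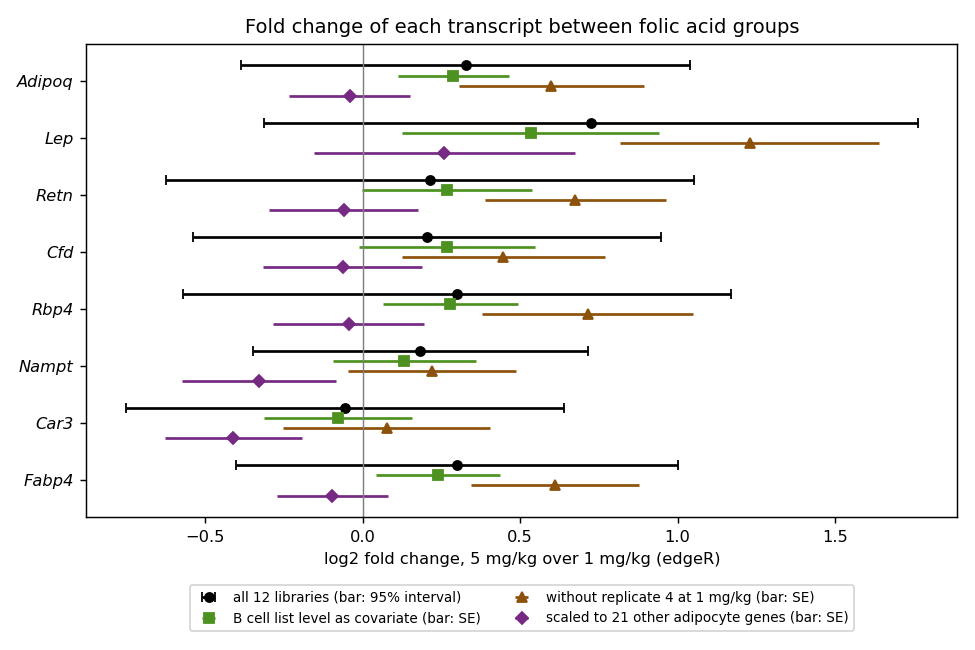
Log2 fold change of each transcript, 5 mg/kg over 1 mg/kg, from edgeR with all 12 libraries (black, 95% interval), with the B cell list level as a covariate (green), without replicate 4 at 1 mg/kg (brown) and scaled to 21 other adipocyte genes (purple); coloured bars are SE. All black intervals include 0; the brown values are the highest for each gene (0.076 for Car3 to 1.23 for Lep) and the purple ones the lowest.

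The ratio of a transcript to Adipoq within a library hardly depends on scaling. Retn, Cfd, Rbp4 and Fabp4 had log2 ratios to Adipoq that differed between 5 mg/kg and 1 mg/kg by 0.01, -0.04, -0.006 and -0.06 (exact two-sided permutation p of 0.617 or more over all assignments of the libraries to groups). The log2 ratio of Lep to Adipoq averaged -3.85 ± 0.34 at 5 mg/kg and -4.32 ± 1.12 at 1 mg/kg (SD, n = 6 each, exact permutation p = 0.370, adjusted over all genes p = 0.489). At 1 mg/kg that ratio ran from -6.04 in replicate 3 to -3.17 in replicate 6, the lowest and the highest of all 12 libraries. Without replicate 3 at 1 mg/kg the difference of Lep to Adipoq between the groups was 0.13 (exact permutation p = 0.751), in place of 0.47. Car3 to Adipoq averaged 2.70 ± 0.28 at 5 mg/kg and 3.09 ± 0.40 at 1 mg/kg (SD, n = 6 each, exact permutation p = 0.080, adjusted p = 0.482), a difference of -0.39. Nampt to Adipoq differed by -0.26 (exact permutation p = 0.442, adjusted p = 0.521). Of all genes set against Adipoq in this way 0 of 18646 passed the adjusted threshold (0.0%), and 118 (0.633%) had an unadjusted p under 0.05, with none of these 7.

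Levels of different transcripts can be compared only per length, here as RPKM, the CPM value divided by the kilobases of annotated exon. Over the 12 libraries Car3 averaged 1600 ± 508 RPKM and Cfd 1407 ± 494 RPKM (SD). Car3 was above Cfd in 9 of 12 libraries, within the spread of either, but by the length of the longest transcript it averaged 2731 RPKM and was above Cfd in 12 of 12. Next came Adipoq at 456 ± 177 RPKM and Fabp4 at 419 ± 163 RPKM, in that order in 10 of 12 libraries and also within their spread.

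Cfd was above Adipoq, Fabp4 above Retn and Retn above Nampt in 12 of 12 libraries. Retn averaged 93.6 ± 46.3 RPKM, Nampt 20.3 ± 6.28 RPKM, Rbp4 18.3 ± 9.52 RPKM and Lep 12.03 ± 7.30 RPKM (SD, n = 12). Nampt was above Rbp4 in 8 of 12 libraries and Rbp4 above Lep in 9 of 12, so the order of these 3 was not settled by their spread. Fabp4 also depends on the gene model: by the length of its principal transcript (896 bases, against 4489 bases of all its exons) it averaged 2099 ± 818 RPKM and took second place after Car3.

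The spread between pads within a group, as the SD of log2 (CPM + 1) pooled over both groups, was above the median of all tested genes (0.258) for all 8. Lep had 0.90, which 96.3% of tested genes did not exceed. Rbp4 and Retn had 0.71 each, Cfd 0.64, Adipoq 0.60, Car3 0.55, Fabp4 0.54 and Nampt 0.44. Among genes of like abundance, 95.1% had a smaller SD than Lep and 57.6% a smaller one than Nampt.

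For all 8 the SD was smaller at 5 mg/kg than at 1 mg/kg, as it was for 69.5% of tested genes, a description with no test. The mean level of the 21 other adipocyte genes likewise had an SD of 0.39 at 5 mg/kg and 0.63 at 1 mg/kg. The SD was 0.15 at 5 mg/kg and 0.90 at 1 mg/kg for Cfd, 0.31 and 0.95 for Retn, and 0.44 and 0.45 for Nampt. As a log2 ratio to Adipoq, Cfd had the larger SD at 5 mg/kg, 0.41 against 0.23 at 1 mg/kg. So had Retn (0.28 against 0.25) and Rbp4 (0.29 against 0.25), while Lep, Nampt, Car3 and Fabp4 had the smaller SD at 5 mg/kg. Without replicate 6 at 1 mg/kg the pooled SD of Cfd was 0.42. When libraries were scaled to the 21 other adipocyte genes, the pooled SD was 0.14 for Fabp4, 0.21 for Adipoq, 0.29 for Car3 and 0.36 for both Retn and Rbp4. It was 0.40 for both Cfd and Nampt, and 0.84 for Lep. The SD of Lep was therefore nearly as large with this scaling as with TMM scaling (0.84 against 0.90). So was that of Nampt (0.40 against 0.44), but with library size alone the SD of Nampt was 0.16.

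**Figure D3:**
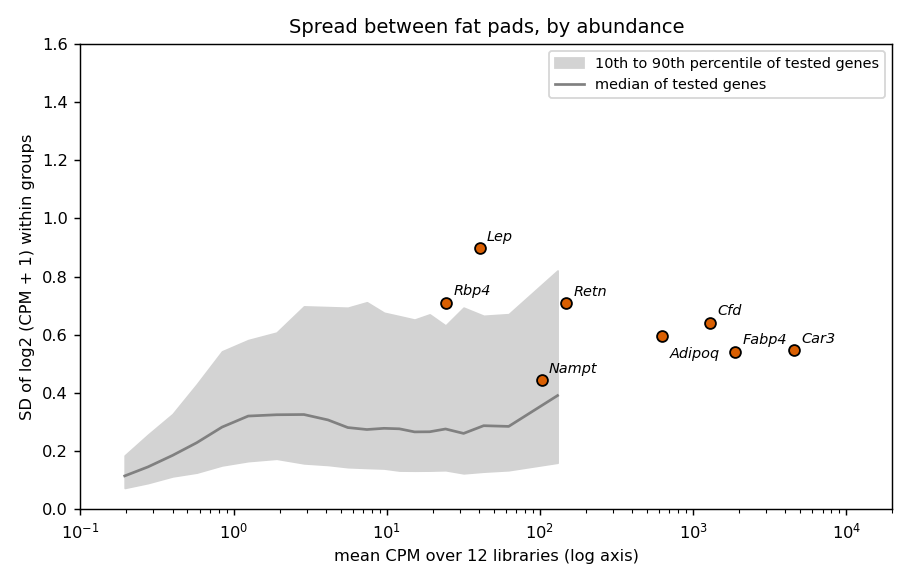
SD of log2 (CPM + 1) within groups against mean CPM over the 12 libraries (log axis) for the 8 transcripts (orange); the grey line and band are the median and the 10th to 90th percentile of tested genes in 20 abundance bins, each placed at its median CPM, so that the band ends before the most abundant genes. Lep (0.90) and Rbp4 (0.71) lie above the band and Nampt (0.44) near the line.

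Across the 12 libraries 15 of the 28 pairs of these transcripts were correlated past a Benjamini-Hochberg adjusted permutation p of 0.05 (Pearson r of log2 (CPM + 1), 100000 resamples). All 10 pairs among Adipoq, Retn, Rbp4, Fabp4 and Cfd were, with r from 0.77 to 0.95 and Spearman rho from 0.76 to 0.98. These 5 were grouped after their values were seen. Of the 18 pairs that included Lep, Nampt or Car3, 5 passed. The share of all gene pairs that pass in this way is not given here. Many other genes were as close: ranked by r with Adipoq among 18646 genes, Fabp4 (r = 0.95) was the 71st and Car3 (r = 0.78) the 1690th. The count of 15 pairs is therefore a description and does not set these transcripts apart from other genes.

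Adipoq and Fabp4 had r = 0.95 (rho = 0.97, r = 0.90 without the 2 libraries farthest from the median of Adipoq). Retn and Rbp4 had r = 0.95 (rho = 0.98, 0.96 without the 2 farthest), and the pair was as close within 5 mg/kg (r = 0.93) as within 1 mg/kg (r = 0.97). Adipoq and Cfd had r = 0.87 over all libraries and r = 0.98 within 1 mg/kg, but r = 0.002 within 5 mg/kg (exact permutation p = 0.996, n = 6), where Cfd hardly varied. Adipoq and Car3 had r = 0.78 (rho = 0.64, adjusted p = 0.060 for rho), which was 0.48 without the 2 farthest libraries, replicates 4 and 6 at 1 mg/kg. Within 5 mg/kg, which holds neither, it was 0.69 (exact permutation p = 0.157, n = 6), and with single libraries left out 0.59 to 0.87. Adipoq with Lep (r = 0.55, adjusted p = 0.093) and with Nampt (r = 0.47, adjusted p = 0.157) did not pass. Adipoq and Lep had r = 0.90 within 5 mg/kg and r = 0.31 within 1 mg/kg (exact permutation p = 0.0625 and 0.571, n = 6 each).

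The 5 libraries low in B cell transcripts were those with the most Adipoq, 759 to 1035 CPM, against 236 to 560 CPM in the other 7. Rbp4 (28.3 to 49.4 CPM in the 5 libraries, 9.59 to 22.5 CPM in the 7) and Fabp4 (1870 to 3313 CPM in the 5, 868 to 1701 CPM in the 7) separated in the same way. Lep, Retn, Cfd, Nampt and Car3 overlapped between these sets. The split was made after the values were seen, and the share of all tested genes that separate in this way is not given here. The separation is therefore a description and no result about these transcripts in particular. Within the 7 libraries alone the 10 pairs of the 5 transcripts had r between 0.65 and 0.99, and 7 of 28 pairs passed an adjusted exact permutation p of 0.05. These 7 were the 6 pairs among Adipoq, Retn, Rbp4 and Cfd and the pair of Nampt with Car3 (r = 0.91), while the 4 pairs with Fabp4 did not pass (r = 0.65 with Rbp4, adjusted exact permutation p = 0.229). There Adipoq and Lep had r = -0.067, and Lep and Fabp4, r = 0.65 over all libraries, had r = 0.11 (n = 7, exact permutation p = 0.817).

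When each library was scaled to the 21 other adipocyte genes, 0 of 28 pairs passed the adjusted threshold. The pairs of the 5 transcripts then had r from -0.067 (Cfd with Fabp4) to 0.78 (Retn with Rbp4), and Adipoq with Nampt had r = -0.61.

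**Figure D4:**
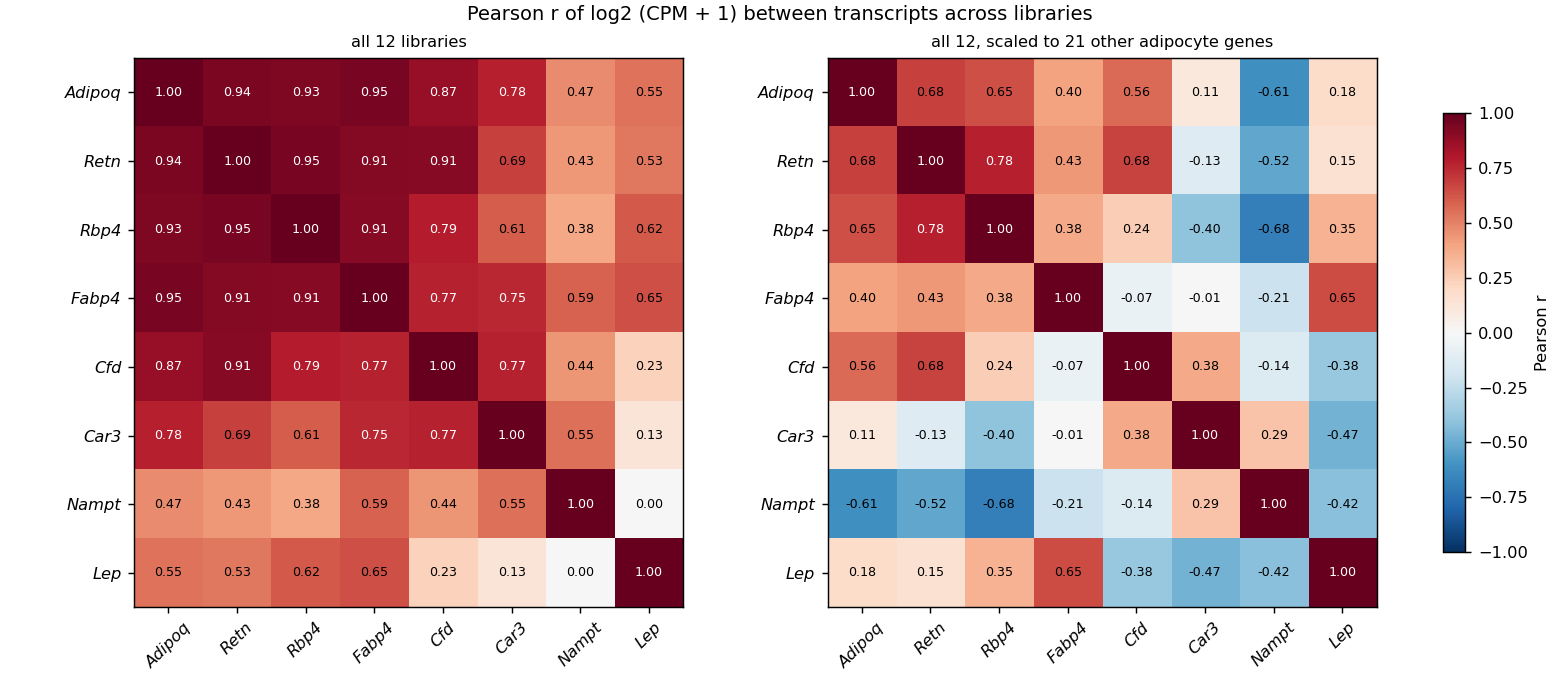
Pearson r of log2 (CPM + 1) for each pair of the 8 transcripts over the 12 libraries, TMM-scaled (left) and scaled to 21 other adipocyte genes (right); red is positive and blue negative. The block of Adipoq, Retn, Rbp4, Fabp4 and Cfd at 0.77 to 0.95 on the left runs from -0.07 to 0.78 on the right, and the Lep and Nampt rows are paler on the left.

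The 8 were also set against the mean level of the 21 adipocyte genes, in 32 relations of the 8 transcripts with 4 lists computed after the values were seen. Fabp4 had r = 0.97 with it, Adipoq 0.94, Rbp4 and Retn 0.91 each, Cfd 0.81 and Car3 0.72 (adjusted permutation p of 0.031 or less). Nampt (r = 0.66, adjusted p = 0.064) and Lep (r = 0.56, adjusted p = 0.161) did not pass. The calls of Cfd and Car3 depend on the measure: by Spearman rho neither passed (adjusted p = 0.071 and 0.207). With library size alone Car3 had r = 0.51 (unadjusted permutation p = 0.089) and Lep r = 0.68 (unadjusted permutation p = 0.012). Within 5 mg/kg Cfd had r = 0.091 with the adipocyte list, and without replicate 6 at 1 mg/kg Car3 had r = 0.53.

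Of the 4 lists, Nampt had its highest r over the 12 libraries with the brown fat list. Its r with the mean level of 12 brown fat markers, among them Ucp1, the uncoupling protein of brown fat, was 0.91 (rho = 0.89, adjusted permutation p = 4.48e-04), and 0.88 without the 2 libraries farthest from the median of the list. It was 0.94 within 5 mg/kg, 0.95 within 1 mg/kg and 0.91 within the 7 libraries rich in B cell transcripts (n = 6, 6 and 7, exact permutation p = 0.0028, 0.0056 and 0.0067). The other 7 transcripts had r between -0.03 and 0.42 with that list over the 12 libraries. Within the 7 libraries, however, Car3 had r = 0.82 and Fabp4 r = 0.79 with it (exact permutation p = 0.026 each, unadjusted), Cfd 0.69 and Adipoq 0.68. Nampt also had r = 0.82 with the fast muscle list (rho = 0.72, adjusted p of rho 0.057). That r was 0.91 within 5 mg/kg, 0.87 within 1 mg/kg and 0.98 within the 7 libraries (exact permutation p = 0.000595 there), where it was above the r with the brown fat list, and Car3 had 0.91 with the fast muscle list there. Over the 12 libraries Car3 had r = 0.69 with the fast muscle list (adjusted permutation p = 0.042), near its r of 0.72 with the adipocyte list. By Spearman rho (0.55, adjusted p = 0.207) it did not pass.

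Scaling moves with Nampt and is given here as a measurement. The 3 libraries with the most Nampt, replicates 5 and 4 of the 5 mg/kg group with replicate 3 of the 1 mg/kg group, had the 3 lowest TMM factors (0.60, 0.775 and 0.763) and the 3 highest shares of mitochondrial rRNA among gene reads (59.5%, 54.6% and 52.9%). With library size alone the pooled SD of Nampt was 0.16 in place of 0.44, its r with the brown fat list was 0.70 (permutation p = 0.013), with the fast muscle list 0.55 and with the adipocyte list -0.063. With the brown fat level as a covariate the log2 fold change of Nampt was -0.12 ± 0.12 (SE).

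**Figure D5:**
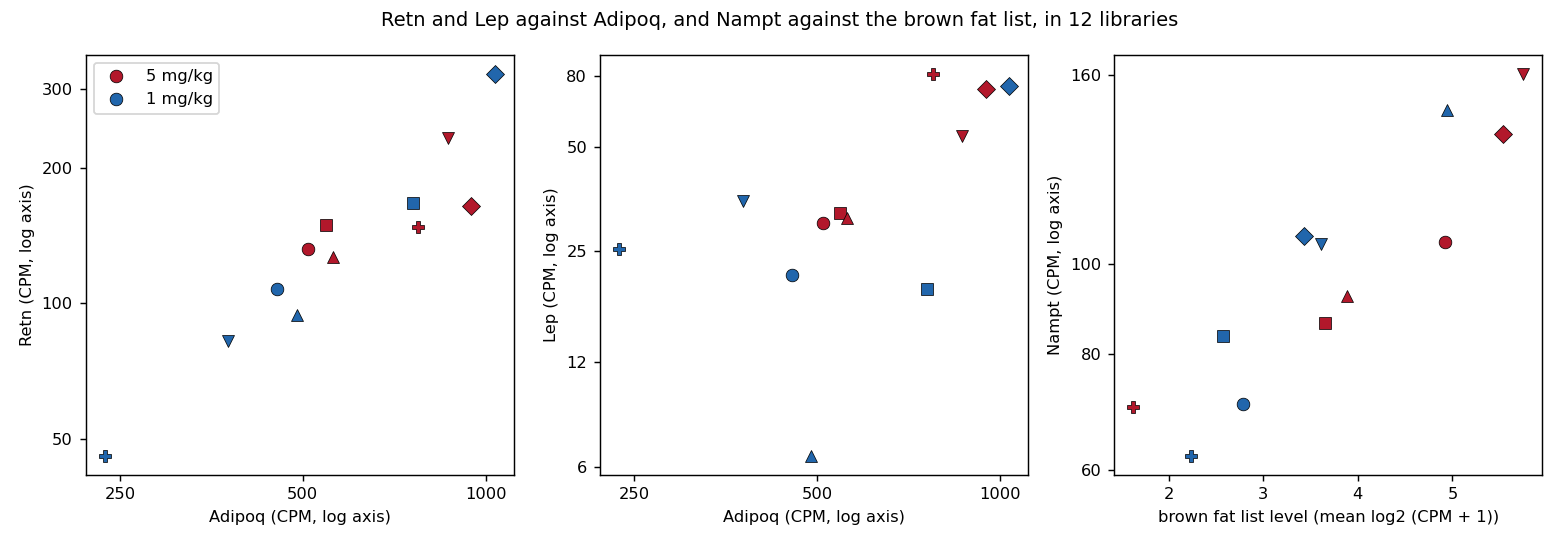
Retn against Adipoq and Lep against Adipoq (CPM, log axes), and Nampt (CPM, log axis) against the mean log2 (CPM + 1) of 12 brown fat genes, with 5 mg/kg in red and 1 mg/kg in blue, symbols by replicate as in the plot of values per library. Retn is higher where Adipoq is higher (r = 0.94), Lep scatters widely at a given Adipoq and is 6.45 CPM in replicate 3 at 1 mg/kg, and Nampt is higher where the brown fat list is (r = 0.91, 0.70 with library size alone).

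Among 9896 named genes with a mean of at least 5 CPM, those nearest in pattern to each transcript over the 12 libraries were picked by the highest Pearson r of log2 (CPM + 1), as a description. For Adipoq they were Gsn (gelsolin), Cd81 and Enpp5, with r from 0.98 to 0.99. For Lep they were Npr3, the clearance receptor of natriuretic peptides, with r = 0.94, followed by Dhdds and Tmem175 with 0.91 each. For Retn they were Txndc12, Car5b (the mitochondrial carbonic anhydrase) and Natd1, with r from 0.97 to 0.99, and for Cfd Pla1a, B3galt2 and Vat1, with r from 0.94 to 0.95.

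For Rbp4 the nearest were Ptger3 (the prostaglandin E receptor EP3), Pgrmc2 and Gnb5, with r of 0.97 each. Nampt was nearest to Ndufa3, a subunit of respiratory complex I, and to Pttg1 and Sdr39u1, with r of 0.99 each, under the scaling caveat above. Car3 was nearest to Cat (catalase), Zfp358 and Csnk1e, with r from 0.95 to 0.96, and Fabp4 to Gstz1, Slc48a1 and Ccdc3, with r from 0.98 to 0.99. None of the 8 was among the 3 nearest of another by this rule, since members were left out of it. Ranked among 18646 genes, Retn was the 17th for Cfd, but Cfd was the 130th for Retn. Rbp4 was the 26th for Retn and Retn the 32nd for Rbp4. Other correlated pairs ranked far lower: Cfd was the 1245th for Rbp4 and the 1736th for Fabp4, and Lep the 3364th for Fabp4.

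The receptors and downstream genes of these products were measured list by list, and in none did a gene pass the adjusted threshold. Of 13 receptor and binding genes 8 had fold changes above 0 and 5 below, with a median of 0.08, but 5 of 13 were above 0 with library size alone. Adipor2, an adiponectin receptor of liver and fat that is also 1 of the 21 other adipocyte genes, averaged 364 ± 73.4 CPM in 5 mg/kg pads, against 297 ± 103 CPM in 1 mg/kg pads (SD, n = 6 each), and its log2 fold change was 0.29 ± 0.24 (SE, edgeR adjusted p = 0.943). Gpr1, a chemerin receptor, was low, at 1.51 ± 0.56 CPM in 5 mg/kg pads, against 0.97 ± 0.42 CPM in 1 mg/kg pads (SD, n = 6 each). Stra6, the retinol uptake receptor that binds RBP4, was low in both groups, at 0.82 ± 0.32 CPM in 5 mg/kg pads, against 0.55 ± 0.18 CPM in 1 mg/kg pads.

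Of 22 other adipokines tested, 19 were above 0, with a median of 0.31, and 18 were with library size alone. Rarres2, the precursor of chemerin, averaged 33.7 ± 11.4 CPM in 5 mg/kg pads, against 23.6 ± 7.21 CPM in 1 mg/kg pads (log2 fold change 0.52 ± 0.26 SE, edgeR adjusted p = 0.943), and Gpx3, a plasma glutathione peroxidase and the most abundant of this list, averaged 321 ± 39.8 CPM in 5 mg/kg pads, against 292 ± 176 CPM in 1 mg/kg pads (SD, n = 6 each). Fgf21, Il6, Itln1 and Serpina12 had too few reads to be tested.

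All 21 of the other adipocyte genes had fold changes above 0, with a median of 0.42, and 1 had an unadjusted p under 0.05. That was Gpd1, glycerol-3-phosphate dehydrogenase, at 843 ± 562 CPM in 5 mg/kg pads, against 388 ± 211 CPM in 1 mg/kg pads (SD, n = 6 each, log2 fold change 1.12 ± 0.51 SE, edgeR adjusted p = 0.943). Of 15 regulators of fat cell formation 12 were above 0, with a median of 0.22. Among them Cebpa, a C/EBP factor of mature fat cells that the 21 adipocyte genes also hold, averaged 85.3 ± 25.1 CPM in 5 mg/kg pads, against 57.2 ± 24.0 CPM in 1 mg/kg pads, and Srebf1, a regulator of lipid synthesis, 107 ± 26.9 CPM in 5 mg/kg pads, against 69.0 ± 33.2 CPM in 1 mg/kg pads (SD, n = 6 each, adjusted p = 0.943 for both).

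Of 6 genes for assembly and secretion of adipokines 4 were above 0 (median 0.09), with P4hb, protein disulfide isomerase, at 160 ± 13.7 CPM in 5 mg/kg pads, against 144 ± 22.2 CPM in 1 mg/kg pads (SD, n = 6 each). In the alternative complement pathway, which adipsin starts, 4 of 9 were above 0 (median -0.05), and C3, its central component, averaged 849 ± 215 CPM in 5 mg/kg pads, against 804 ± 143 CPM in 1 mg/kg pads (SD, n = 6 each). Of 12 NAD salvage genes 8 were above 0 (median 0.13), and 5 were with library size alone. Nadk, NAD kinase, averaged 88.8 ± 17.0 CPM in 5 mg/kg pads, against 74.1 ± 15.8 CPM in 1 mg/kg pads (SD, n = 6 each).

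Of 12 retinoid genes 8 were above 0 (median 0.14), and Aldh1a1, a retinaldehyde dehydrogenase, averaged 58.6 ± 24.6 CPM in 5 mg/kg pads, against 48.8 ± 22.0 CPM in 1 mg/kg pads (SD, n = 6 each). All 12 other carbonic anhydrases tested were above 0 (median 0.23), but 7 were with library size alone. Of 9 other fatty acid binding proteins 3 were tested, and Fabp3, the form of heart and muscle, had a log2 fold change of 0.77 ± 0.54 (SE, adjusted p = 0.943), while Fabp5, the epidermal form, averaged 52.4 ± 29.5 CPM in 5 mg/kg pads, against 37.0 ± 18.5 CPM in 1 mg/kg pads (SD, n = 6 each).

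Markers of other tissue in the pad had fold changes of either sign, and none passed the adjusted threshold. The median log2 fold change was 3.58 over 6 slow muscle genes, all above 0 and all at an unadjusted p under 0.05, and 1.47 over 12 brown fat genes, 11 above 0. It was -0.57 over 6 B cell genes and -0.62 over 6 T cell genes, all below 0, and -0.18 over 6 fast muscle genes. It was 0.41 over 6 fibroblast genes, 0.18 over 6 endothelial and 0.19 over 6 macrophage genes, -0.12 over 6 luminal and -0.02 over 6 basal epithelial genes and -0.79 over 5 neutrophil genes.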

How the data were processed

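For each of the 12 libraries the authors deposited a table of raw read counts by gene ID. Per the labels' protocols, whole right thoracic fat pads were frozen, and a mirVana RNA isolation and a TruSeq version 2 RNA kit followed; that kit takes polyadenylated RNA without marking its strand. Per the submitters' processing notes, STAR, HTSeq 0.6.1 and mm10 were used, and the gene annotation of the counting is not given in the sources used here. Lines tallying reads of no gene, 16.7% to 35.7% of reads, were left out. Mitochondrial rRNA took 39.2% to 59.5% of gene reads. Libraries of a group were no copies of each other: over genes with at least 20 reads in a pair, the lowest chi-square per degree of freedom was 41.7 in 30 pairs.

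Symbols and lengths came from GENCODE vM21, and older gene names in the lists were matched by synonym. Counts were filtered with filterByExpr, scaled by TMM and tested with the quasi-likelihood test of edgeR 4.0.16 (R 4.3.3), with Benjamini-Hochberg adjustment over all tested genes. CPM and RPKM were computed from TMM-scaled counts, and ratios and correlations used log2 (CPM + 1). The level of a list averages log2 (CPM + 1) over its tested genes, leaving out the 8. Permutation tests were two-sided and exact for groups, where the smallest possible p is 0.00216, and used 100000 resamples for correlations. The code was tested on simulated data.

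The 8 genes, the 21 further lists and the alternatives were chosen with earlier results of these data known. The 3 genes of smallest p and the most abundant gene of each list could be named, and some list genes are not reported by name here. Alternatives were DESeq2 1.42.0, limma-voom 3.58.1, other scalings, filters, covariates and each library left out, and the B cell split, the relations to list levels and the principal transcript lengths were added after the values were seen.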

Additional observations from a re-analysis of the deposited data

How the results depend on the processing

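No alternative gave a gene past an adjusted p of 0.05 in the comparison of 5 mg/kg with 1 mg/kg, and none of the 8 transcripts passed in any. No paired analysis was possible because the labels give no replicate numbers within the groups, and those used here are names in record order that pair no libraries. Signs of the log2 fold changes turned round as follows, and the cause was not tested. Scaled to the adipocyte list they were -0.0410 for Adipoq, -0.0605 for Retn, -0.0631 for Cfd, -0.0449 for Rbp4, -0.33 for Nampt and -0.0969 for Fabp4. With the slow muscle level as a covariate they were -0.13 for Retn, -0.14 for Rbp4, -0.0869 for Nampt and 0.0335 for Car3, and with the brown fat level -0.12 for Nampt. By limma-voom Car3 was 0.0387. With each library left out in turn Car3 ran from -0.21 to 0.076, and the other 7 kept a positive value, from 0.019 (Cfd) to 1.23 (Lep).

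The ratios to Adipoq that lay near 0 also changed sign. Rbp4 was 0.014 with a pseudocount of 0.25, Retn was -0.00324 with a pseudocount of 4, and Retn was -0.018 with the adipocyte list as denominator. Over single libraries left out the ratio ran from -0.043 to 0.10 for Retn, -0.092 to 0.079 for Rbp4, -0.14 to 0.072 for Cfd and -0.13 to 0.00214 for Fabp4. That of Car3 kept its sign, from -0.48 to -0.28, with an unadjusted exact permutation p from 0.041 to 0.160. That of Lep kept its sign too, from 0.13 without replicate 3 at 1 mg/kg to 0.70 without replicate 6 at 1 mg/kg. The number of correlated pairs, 15 of 28, was 14 with library size alone, 11 by Spearman rho and 10 to 18 with single libraries left out, but 0 scaled to the adipocyte list and 7 within the 7 libraries rich in B cell transcripts, where fewer libraries also lower what the test can call. The r of Adipoq with Nampt was -0.19 with library size alone and -0.61 scaled to the adipocyte list, that of Cfd with Fabp4 -0.067 scaled to that list, that of Adipoq with Lep -0.067 within the 7 libraries and that of Nampt with the adipocyte list -0.063 with library size alone. Counts at an unadjusted p under 0.05 ran from 111 (slow muscle covariate) to 1698 (adipocyte scaling), and with single libraries left out from 200 (replicate 4 at 5 mg/kg) to 1445 (replicate 4 at 1 mg/kg). Depth did not limit the 8, the lowest count being 303 reads of Lep in replicate 3 at 1 mg/kg.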
